A study of Mus musculus with 4 samples.

Results

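The genes described here are C1qa, C1qb and C1qc, which encode the 3 chains of complement C1q, with Apoe (apolipoprotein E) and Trem2 (a lipid-sensing receptor of myeloid cells). They were taken by gene symbol from a table of 54532 mouse genes, and all 5 were present. Expression had been measured by RNA sequencing in 4 libraries, 2 labelled Piezo1KO and 2 labelled WT, described as CD4+ T cells sorted from B16 tumours (B16 is a mouse melanoma line that makes pigment). Piezo1 encodes a cation channel opened by mechanical force, and the study asks how it acts in Th9 cells, which make interleukin 9. The labels give no age, no strain, no promoter that limits the deletion, no agent beyond the tumour itself and no word on separate animals within a group. The p-values therefore reflect the spread among these 4 libraries alone, and that spread may be technical. Libraries are numbered by the sample number in their titles, so that WT 1 and WT 2 are the deposited columns WT2 and WT3, and Piezo1KO 1 and Piezo1KO 2 the columns KO1 and KO2.

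C1q is the recognition molecule of the classical complement pathway. Its A, B and C chains are assembled in equal numbers, each with a collagen-like stem and a globular head, and it is made mainly by macrophages and related myeloid cells. ApoE carries lipids between cells and is secreted by macrophages, liver cells and many other cell types. TREM2 binds lipids and lipoproteins, ApoE among them, and signals through the adaptor TYROBP. Macrophages in tumours, fatty tissue and the injured brain are known to express these genes together, in what is called the lipid-associated state.

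The libraries did not carry the profile of sorted T cells. The 18 T cell markers summed to 19.7 and 13.7 FPKM (fragments scaled by gene length and depth) in Piezo1KO 1 and Piezo1KO 2, against 3.44 and 2.84 FPKM in WT 1 and WT 2. The 12 melanocyte markers summed to 6945 and 6875 FPKM in the Piezo1KO libraries, against 6354 and 6390 FPKM in the WT libraries. Assigned reads ranged from 13789266 to 15892797 per library. Mitochondrial genes held 20.1% and 48.3% of them in Piezo1KO 1 and Piezo1KO 2, against 3.86% and 2.99% in WT 1 and WT 2. Piezo1 had 18.7 and 7.64 FPKM in the Piezo1KO libraries and 27.8 and 27.6 FPKM in the WT libraries, a difference short of the threshold (limma adjusted p = 0.166). In bulk RNA, more cells of a type and more RNA per cell cannot be told apart.

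The 3 C1q genes lie side by side on the minus strand of GRCm38 chromosome 4, with C1qb (ENSMUSG00000036905) at 136880129 to 136886187, C1qc (ENSMUSG00000036896) at 136889804 to 136893065 and C1qa (ENSMUSG00000036887) at 136895917 to 136898803. Each has 3 exons in its coding transcript. Apoe (ENSMUSG00000002985) lies on the minus strand of chromosome 7 at 19696109 to 19699188, and Trem2 (ENSMUSG00000023992) on the plus strand of chromosome 17 at 48346401 to 48354147. No other protein-coding gene of the table overlaps any of them. These coordinates are those of the table and are the same in GENCODE M21. The RefSeq promoter table (GRCm38.p6) held entries for 4 of the 5 genes, C1qa being the missing one.

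The promoters are shown because the 5 genes stood higher in the same libraries. Each runs from 250 bases before a RefSeq start site to 50 bases from it on, written 5′ to 3′ on the gene's own strand. Apoe has 3 RefSeq start sites, and the window nearest the deposited gene start is shown. Capitals mark matches to GAGGAA, the core that PU.1 binds, and to CATGTG, the M-box known as a target of the melanocyte factor MITF, on either strand.
C1qb (chr4:136886151-136886450, minus strand): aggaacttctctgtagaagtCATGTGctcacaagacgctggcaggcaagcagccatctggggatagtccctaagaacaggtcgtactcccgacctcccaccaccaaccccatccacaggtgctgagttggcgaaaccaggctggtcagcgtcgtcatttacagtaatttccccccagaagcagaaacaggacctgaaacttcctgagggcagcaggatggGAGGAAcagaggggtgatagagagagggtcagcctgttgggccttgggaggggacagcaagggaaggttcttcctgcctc
C1qc (chr4:136892865-136893164, minus strand): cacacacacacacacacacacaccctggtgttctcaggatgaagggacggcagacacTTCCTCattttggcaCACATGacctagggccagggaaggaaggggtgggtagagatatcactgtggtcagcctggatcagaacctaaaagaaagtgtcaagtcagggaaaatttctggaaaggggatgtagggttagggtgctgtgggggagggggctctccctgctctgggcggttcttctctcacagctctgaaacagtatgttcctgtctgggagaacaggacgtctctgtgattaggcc
Apoe (chr7:19699139-19699438, minus strand): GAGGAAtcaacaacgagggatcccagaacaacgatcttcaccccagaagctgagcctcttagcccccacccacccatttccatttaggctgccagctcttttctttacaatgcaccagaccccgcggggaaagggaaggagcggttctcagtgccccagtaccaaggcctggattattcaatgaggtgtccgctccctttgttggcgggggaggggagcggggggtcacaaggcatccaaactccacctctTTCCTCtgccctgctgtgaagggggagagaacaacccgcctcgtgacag
Trem2 (chr17:48346151-48346450, plus strand): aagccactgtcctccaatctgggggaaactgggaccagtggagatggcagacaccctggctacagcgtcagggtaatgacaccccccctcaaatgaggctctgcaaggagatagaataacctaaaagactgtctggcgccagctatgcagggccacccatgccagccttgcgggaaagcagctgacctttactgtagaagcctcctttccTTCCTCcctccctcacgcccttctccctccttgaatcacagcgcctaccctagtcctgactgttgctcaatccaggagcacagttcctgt
GAGGAA was found in all 4 promoters printed, at -30 in C1qb, -193 in C1qc, -250 and 1 in Apoe and -40 in Trem2, counted from the start site. It was present in 28.3% of all 32851 mouse promoters of this length, so it is a common match. CATGTG was found in C1qb at -230 and in C1qc at -178, and in 14.2% of all promoters. The TATA box TATAAA, present in 13.6%, had no match in these 4 windows. No matches in them overlapped each other. Of the Apoe windows not printed, that of start site 19698621 had no GAGGAA but had TATAAA at -100 and -96. That of start site 19698398 had GAGGAA at -132 and no TATAAA. A match is a run of letters and not a measured binding site. For C1qc the RefSeq start site lies 151 bases downstream of the gene start in the deposited table.

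All 5 genes had higher FPKM in both Piezo1KO libraries than in both WT libraries, and C1qa and C1qb passed the test. Of 11085 genes tested, 0.731% passed and were higher in Piezo1KO, and 1.10% passed in either direction. Both Piezo1KO values lay above both WT values for 33.9% of all tested genes, so that order alone is common here. Likewise 0.370% passed and were lower, and 35.6% had both Piezo1KO values below both WT values. The test was limma on log2(FPKM + 1), Piezo1KO minus WT, two-sided, with Benjamini-Hochberg adjustment over all tested genes at a threshold of 0.05. The 1 added before the logarithm makes fold changes of low genes smaller.

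C1qa, the A chain, had 53.9 and 60.6 FPKM in Piezo1KO 1 and Piezo1KO 2, from 826 and 472 reads, against 17.8 and 12.8 FPKM in WT 1 and WT 2, from 364 and 271 reads. Every Piezo1KO value was above every WT value, and the gap between the groups was several times the spread within either. The means were 57.2 ± 4.74 FPKM in Piezo1KO and 15.3 ± 3.50 FPKM in WT (SD, n = 2 each), a ratio of 3.74. C1qa rose by 1.85 on the log2 scale (standard error 0.20, limma adjusted p = 0.0461).

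C1qb, the B chain, had 60.0 and 45.1 FPKM in Piezo1KO 1 and Piezo1KO 2, from 962 and 368 reads, against 14.1 and 11.3 FPKM in WT 1 and WT 2, from 302 and 250 reads. Here Piezo1KO 1 was the higher Piezo1KO library, while for C1qa it was Piezo1KO 2. The means were 52.5 ± 10.5 FPKM in Piezo1KO and 12.7 ± 1.97 FPKM in WT (SD, n = 2 each), a ratio of 4.14. C1qb rose by 1.96 on the log2 scale (standard error 0.21, limma adjusted p = 0.0438).

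C1qc, the C chain, had 21.9 and 16.7 FPKM in Piezo1KO 1 and Piezo1KO 2, from 624 and 242 reads, against 8.88 and 6.59 FPKM in WT 1 and WT 2, from 338 and 259 reads. The groups did not overlap, but the distance between them was smaller than for the other chains. The means were 19.3 ± 3.67 FPKM in Piezo1KO and 7.73 ± 1.62 FPKM in WT (SD, n = 2 each), a ratio of 2.50. Its log2 fold change of 1.22 (standard error 0.21) missed the threshold (limma adjusted p = 0.0960).

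C1qa and C1qb kept their calls without either Piezo1KO library and lost them without either WT library. Without WT 1 the limma adjusted p was 0.346 for C1qa and 0.434 for C1qb, and without WT 2 it was 0.557 and 0.603, while the log2 fold changes stayed between 1.63 and 2.11. In those limma fits 0 genes of the whole table passed, while 723 and 616 had an unadjusted p under 0.05. When Piezo1KO 1 was left out or Piezo1KO 2 was left out, all 5 genes passed, with adjusted p from 0.00356 to 0.0245, but so did 5859 and 1579 genes of the table. Each of these fits has 1 library in an arm, which is assumed to vary like the 2 libraries of the other group, so the spread comes from that other group alone.

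**Figure D1:**
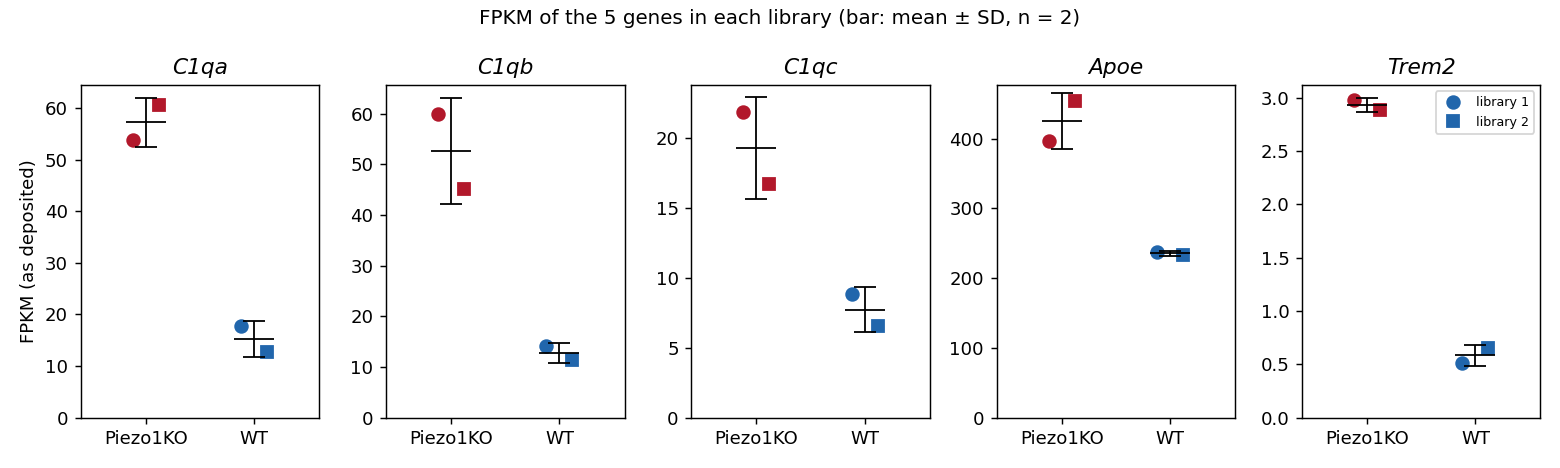
Deposited FPKM of C1qa, C1qb, C1qc, Apoe and Trem2 (y axes, starting at 0) in the 2 Piezo1KO libraries (red) and the 2 WT libraries (blue), circles for library 1 and squares for library 2, with the mean ± SD of each group as bars. Every red point lies above every blue point, with Trem2 at 2.97 and 2.89 against 0.513 and 0.656 FPKM and Apoe at 397 and 454 against 238 and 233 FPKM.

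C1qc took a smaller part of the summed C1q signal in the Piezo1KO libraries than in the WT libraries. Such a ratio stays the same when all values of a library are multiplied by a single factor, though not under quantile normalisation or removal of a length trend. C1qc made up 16.1% and 13.7% of the summed C1q FPKM in Piezo1KO 1 and Piezo1KO 2, against 21.8% and 21.5% in WT 1 and WT 2. C1qa made up 39.7% and 49.5% in the Piezo1KO libraries and 43.6% and 41.7% in the WT libraries. C1qb made up 44.2% and 36.9% in the Piezo1KO libraries and 34.6% and 36.8% in the WT libraries. The C1qc share was lower in every Piezo1KO library than in any WT library, while the WT shares of C1qa lay between those of the Piezo1KO libraries. An exact two-sided permutation test of 2 libraries per group cannot go below p = 0.333, and this order was not tested in another way.

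The length by which FPKM is divided matters for comparing these genes. For C1qc the table uses 1931 bases, the union of the exons of 2 transcripts, whereas its coding transcript has 1203 bases. For C1qa and C1qb the 2 lengths are equal, at 1040 and 1088 bases. Values were also divided by the length of the longest coding transcript. The WT means were then 15.3 ± 3.50 FPKM for C1qa, 12.7 ± 1.97 FPKM for C1qb and 12.4 ± 2.59 FPKM for C1qc (SD, n = 2 each). C1qa was the highest chain in each WT library, at 17.8 and 12.8 FPKM in WT 1 and WT 2. C1qb had 14.1 and 11.3 FPKM there, and C1qc 14.2 and 10.6 FPKM. The Piezo1KO means on that scale were 57.2 ± 4.74 FPKM for C1qa, 52.5 ± 10.5 FPKM for C1qb and 31.0 ± 5.89 FPKM for C1qc. C1qc lay below the other chains there. All reads of a gene are kept on that scale, so the C1qc values are upper bounds if reads fall outside the coding transcript.

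**Figure D2:**
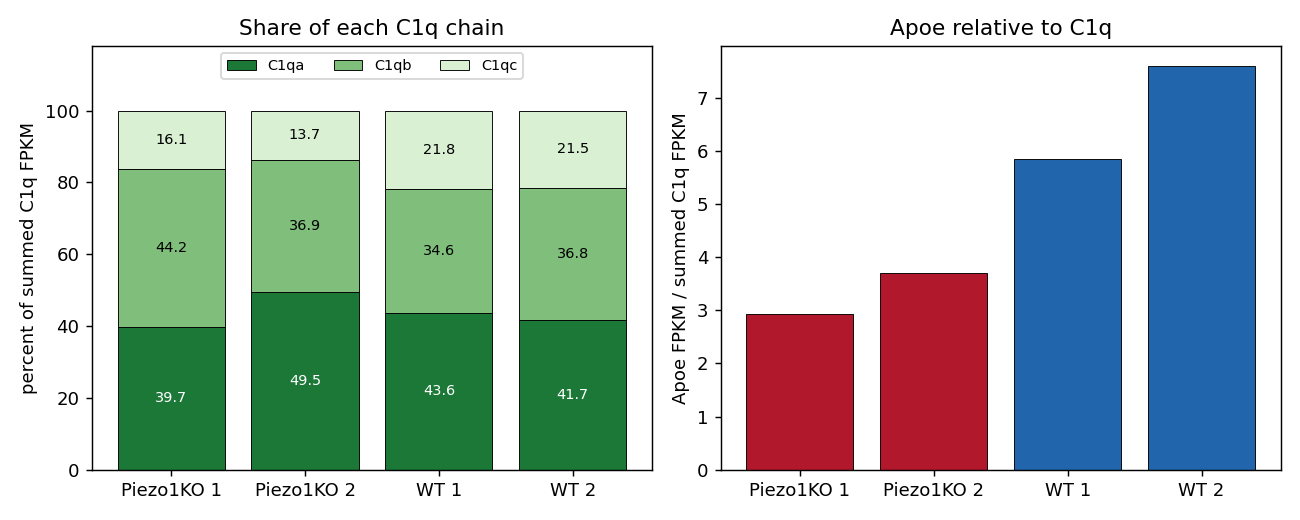
Left, the percent of the summed C1q FPKM (y axis) that each chain took in each library, Piezo1KO 1, Piezo1KO 2, WT 1 and WT 2 from left to right, with C1qa at the bottom and C1qc at the top. Right, Apoe FPKM divided by the summed C1q FPKM in the same libraries, 2.93 and 3.71 in Piezo1KO (red) against 5.85 and 7.59 in WT (blue).

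Apoe was by far the most abundant of the 5 genes. It stood at position 78 and 125 of 22046 protein-coding genes by FPKM in Piezo1KO 1 and Piezo1KO 2, and at position 96 and 99 in WT 1 and WT 2. It had 397 and 454 FPKM in the Piezo1KO libraries, from 12526 and 7270 reads, against 238 and 233 FPKM in the WT libraries, from 10034 and 10139 reads. The WT values were nearly equal and lay below both Piezo1KO values. The means were 425 ± 39.9 FPKM in Piezo1KO and 236 ± 3.50 FPKM in WT (SD, n = 2 each), a ratio of 1.81. The log2 fold change of 0.85 (standard error 0.21) missed the threshold (limma adjusted p = 0.130). It was -0.21 under quantile normalisation, and 0.037 when all assigned reads set the scale.

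Relative to C1q, Apoe was lower in the Piezo1KO libraries than in the WT libraries. Its FPKM was 2.93 and 3.71 times the summed C1q FPKM in Piezo1KO 1 and Piezo1KO 2, against 5.85 and 7.59 times in WT 1 and WT 2. Set against the sum of 22 macrophage markers, which holds none of the 5 genes, Apoe was at 0.666 and 1.12 times in the Piezo1KO libraries and 1.91 and 2.29 times in the WT libraries. Set against the melanocyte gene Pmel, Apoe was higher instead. It was 17.2% and 20.9% of Pmel FPKM in Piezo1KO 1 and Piezo1KO 2, against 11.8% and 12.3% in WT 1 and WT 2. On each of these ratios the Piezo1KO and WT libraries did not overlap, as a description of these 4 libraries with no test.

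Trem2 was the least abundant of the 5 genes. It had 2.97 and 2.89 FPKM in Piezo1KO 1 and Piezo1KO 2, from 217 and 107 reads, against 0.513 and 0.656 FPKM in WT 1 and WT 2, from 50 and 66 reads. The groups were far apart relative to their spread, and Trem2 was the member that reached the filter (a mean of at least 1 FPKM over the 4 libraries) through the Piezo1KO libraries alone. The means were 2.93 ± 0.0624 FPKM in Piezo1KO and 0.584 ± 0.101 FPKM in WT (SD, n = 2 each), a ratio of 5.02, the largest of the 5 genes. On the log2(FPKM + 1) scale the difference was 1.31 (standard error 0.17), just short of the threshold (limma adjusted p = 0.0594). It was 2.15 with 0.1 added in place of 1 (adjusted p = 0.0671) and 2.12 in voom, limma's weighted fit of reads, on the reads recovered from FPKM (adjusted p = 0.0364).

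The deposited length of Trem2, 4946 bases, is the exon union of 4 transcripts, and its longest coding transcript has 1088 bases. On that shorter length Trem2 had 13.5 and 13.1 FPKM in Piezo1KO 1 and Piezo1KO 2, against 2.33 and 2.98 FPKM in WT 1 and WT 2. All reads of the gene are kept on that length, so these values are upper bounds if some reads fall on other exons. With that limit Trem2 lay nearer to the C1q chains, though still below each of them in every library. Trem2 FPKM as deposited was 8.27% and 13.0% of that of its adaptor gene Tyrobp in the Piezo1KO libraries, against 14.3% and 22.3% in the WT libraries.

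The scale of the deposited FPKM bears on all 5 genes. The library size implied by the FPKM values was 0.962 and 0.544 times the assigned reads in Piezo1KO 1 and Piezo1KO 2, against 1.26 and 1.28 times in WT 1 and WT 2. Scaling to all assigned reads, mitochondrial ones included, shifted the median of all genes to -0.67. The log2 fold changes were then 1.07 for C1qa, 1.19 for C1qb, 0.48 for C1qc, 0.037 for Apoe and 0.86 for Trem2, with C1qb passing (limma adjusted p = 0.0424) and C1qa not (adjusted p = 0.0603). Relative to that median they were 1.74, 1.86, 1.15, 0.71 and 1.53, in the same order. Scaling to reads outside mitochondrial genes shifted the median to -0.20, and the values relative to it were 1.85, 1.96, 1.23, 0.83 and 1.49. In that scaling C1qa passed (limma adjusted p = 0.0348) and C1qb did not (adjusted p = 0.0524). Over all genes, 81 passed higher and 41 lower with FPKM as deposited, against 74 and 58 outside mitochondrial genes, 252 and 1466 with all assigned reads, and 143 and 163 in voom.

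Reads of the 5 genes made up 0.0988% of assigned reads in Piezo1KO 1 (exact 95% binomial interval 0.0973 to 0.1004%) and 0.0613% in Piezo1KO 2 (0.0600 to 0.0627%). They made up 0.0709% in WT 1 (0.0696 to 0.0722%) and 0.0691% in WT 2 (0.0678 to 0.0704%). The groups overlapped on this scale, with Piezo1KO 2 lowest. Of reads outside mitochondrial genes the share was 0.124% and 0.119% in the Piezo1KO libraries, against 0.0737% and 0.0713% in the WT libraries, and the groups were apart. Most of these reads were from Apoe.

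**Figure D3:**
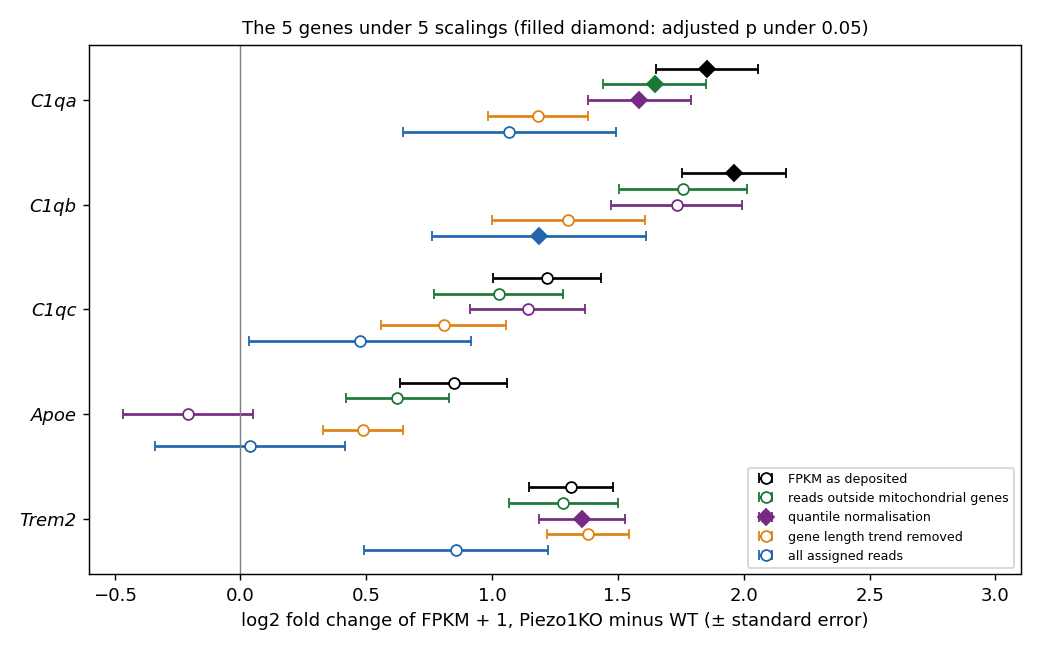
Log2 fold change of FPKM + 1, Piezo1KO minus WT, with its standard error (x axis) for each of the 5 genes under 5 settings, each in its own colour, filled diamonds marking an adjusted p under 0.05. C1qa, C1qb, C1qc and Trem2 stay above 0 throughout, and Apoe runs from 0.85 as deposited to -0.21 after quantile normalisation.

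Gene length was a further setting that moved the C1q chains. With the trend of log2 values on gene length removed in each library, the log2 fold changes were 1.18 for C1qa, 1.30 for C1qb, 0.81 for C1qc and 0.49 for Apoe, all smaller than with the values as deposited. Trem2, the longest of the 5 in the table, had 1.38. None of the 5 passed (the lowest limma adjusted p was 0.0771, for Trem2), and 6 genes of the whole table passed. All 5 had an unadjusted p under 0.05 there, as did 2580 of the 11085 genes tested.

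Of the other complement genes, properdin rose. Of 27 listed genes of the classical pathway and C1q receptors, 18 were tested, 1 rose and 0 fell in limma and 2 were higher in voom, with a list median of 0.45 against -0.0059 for all tested genes. Cfp, which encodes properdin of neutrophils and macrophages, rose by 1.70 on the log2 scale (limma adjusted p = 0.0485), with 14.5 and 10.4 FPKM in the Piezo1KO libraries against 2.95 and 3.23 FPKM in the WT libraries. The proteases C1r and C1s, which form the C1 complex with C1q, were not among the genes that passed. C1ra had 3.30 and 2.46 FPKM in Piezo1KO 1 and Piezo1KO 2, against 2.19 and 2.16 FPKM in WT 1 and WT 2 (adjusted p = 0.314), and C1s1 had 0.845 and 0.768 FPKM in Piezo1KO against 0.762 and 0.440 FPKM in WT, below the filter. C3, the central component, had 3.26 and 0.804 FPKM in the Piezo1KO libraries, with Piezo1KO 1 the higher, against 0.148 and 0.0860 FPKM in the WT libraries (adjusted p = 0.159). Itgam, a chain of complement receptor 3, had a log2 fold change of 1.47, and C5ar1, the C5a receptor, had 1.73 (adjusted p of 0.0630 and 0.102). Of the 18 tested, 3 had a WT mean under 1 FPKM, C3 and Itgam among them, and reached the filter through the Piezo1KO libraries, which biases the list median upwards. C1qbp, a mostly mitochondrial protein named for binding C1q, had 47.6 and 60.7 FPKM in Piezo1KO against 39.2 and 44.3 FPKM in WT (adjusted p = 0.255).

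Among 26 genes of other proteins with a C1q domain, 3 were tested and 0 passed in limma, with 1 called by voom. An unadjusted p under 0.05 in limma was found for 2 of the 3, against 3170 of all 11085 tested genes. Emilin2, an extracellular matrix glycoprotein, had a log2 fold change of 1.91, Emilin1 had -0.67 and C1qtnf6 had 0.080 (limma adjusted p of 0.0884, 0.141 and 0.708). Emilin2 had a WT mean of 0.779 FPKM and reached the filter through the Piezo1KO libraries.

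Like Apoe, the other apolipoprotein and lipoprotein-handling genes did not pass the limma test. Of 30 listed genes 18 were tested, and 0 passed in limma, with 1 called by voom. In limma 7 of the 18 had an unadjusted p under 0.05, against 3170 of all 11085 tested genes. The list median was -0.16, with 8 genes above 0 and 10 below. The scavenger receptor genes Cd36 and Msr1 had log2 fold changes of 0.97 and 1.14 (adjusted p of 0.0969 and 0.0975). Msr1 had a WT mean of 0.571 FPKM and reached the filter through the Piezo1KO libraries. Mylip, a ubiquitin ligase of sterol metabolism, had -0.74 (adjusted p = 0.111). The lipid exporter gene Abca1 had 1.84 and 1.16 FPKM in the Piezo1KO libraries and 2.31 and 2.07 FPKM in the WT libraries (adjusted p = 0.279). Lpl, lipoprotein lipase, had 2.69 and 1.85 FPKM in Piezo1KO against 0.963 and 1.12 FPKM in WT (adjusted p = 0.147).

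No protein-coding neighbour of the 5 genes that could be tested passed in limma, and several had no reads. Apoc1, the apolipoprotein gene 3449 bases from Apoe, had 0 and 2 reads in Piezo1KO 1 and Piezo1KO 2 and 0 in WT 1 and WT 2, and Apoc2 and Apoc4, in the same cluster, had 0 reads in all 4 libraries. The floor of 3 reads would be 0.273 and 0.538 FPKM of Apoc1 in the Piezo1KO libraries and 0.204 and 0.198 FPKM in the WT libraries. On the other side of Apoe, Tomm40, a subunit of the mitochondrial import pore, had 26.8 and 31.5 FPKM in the Piezo1KO libraries against 23.4 and 26.3 FPKM in the WT libraries (limma adjusted p = 0.371). Next to the C1q cluster, Epha8 had 0 reads in all libraries, and Ephb2, which like Epha8 encodes an ephrin receptor, had 0.414 and 0.212 FPKM in Piezo1KO against 0.334 and 0.440 FPKM in WT. Next to Trem2, Treml1 had 0 reads in all libraries and Treml2 had 33 and 4 reads in Piezo1KO 1 and Piezo1KO 2, against 3 and 4 in WT 1 and WT 2. Trem1, a receptor of neutrophils and monocytes in the same cluster, had 5.05 and 1.20 FPKM in the Piezo1KO libraries, against 0.118 and 0 FPKM in the WT libraries (adjusted p = 0.141). It reached the filter through the Piezo1KO libraries. Trem1 was several times lower in Piezo1KO 2 than in Piezo1KO 1, whereas the Trem2 values of those libraries were nearly equal.

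Of the TREM2 signalling genes, the adaptor Tyrobp rose. It had 36.0 and 22.2 FPKM in Piezo1KO 1 and Piezo1KO 2, against 3.57 and 2.95 FPKM in WT 1 and WT 2, 2.79 higher on the log2 scale (limma adjusted p = 0.0381; 0.139 with the gene length trend removed). Among 21 listed genes 14 were tested, and no other passed in limma, while voom called 2 higher; the list median was 0.79. Vav1, an exchange factor of blood cells, had a log2 fold change of 1.58, and Ms4a4a and Ms4a6d, membrane proteins of the MS4A family, had 2.08 and 1.62 (adjusted p of 0.0862, 0.104 and 0.117). The kinase gene Syk and the phospholipase gene Plcg2 had 0.68 and 0.29 (adjusted p of 0.277 and 0.378). The TREM2 sheddase genes Adam10 and Adam17 had -0.28 and -0.46 (adjusted p of 0.251 and 0.142). Of the 14 tested, 7 had a WT mean under 1 FPKM and reached the filter through the Piezo1KO libraries, which biases the median upwards.

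Among 28 genes of the lipid-associated macrophage state, the 5 genes left out, 25 were tested, 3 rose and 0 fell in limma and 6 were higher in voom, with a list median of 0.93. Of the 25 tested, 4 had a WT mean under 1 FPKM, Clec7a among them, and reached the filter through the Piezo1KO libraries, which biases the median upwards. Ccl6, a myeloid chemokine, had 72.5 and 54.7 FPKM in the Piezo1KO libraries against 9.55 and 7.67 FPKM in the WT libraries, 2.74 higher on the log2 scale (limma adjusted p = 0.0340). Lgals3, the lectin galectin-3, had 210 and 258 FPKM in Piezo1KO against 72.4 and 65.4 FPKM in WT, a log2 fold change of 1.74 (adjusted p = 0.0479). Tyrobp was the third gene. Spp1, the secreted protein osteopontin, and Clec7a, the receptor of fungal glucans, had 2.40 and 2.93 (adjusted p of 0.0594 each). Gpnmb, made by lipid-laden macrophages and by melanocytes, had 719 and 616 FPKM in Piezo1KO against 652 and 650 FPKM in WT. Its log2 fold change was 0.032 (limma adjusted p = 0.936). When scaled to all assigned reads it was -0.78, which was -0.10 relative to the median of all genes in that scaling. After quantile normalisation it was -1.28, or -1.21 relative to the median. Several genes of this list, such as the cathepsin genes Ctsd and Ctsz and the melanosome-associated Cd63, were above 100 FPKM in all 4 libraries.

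**Figure D4:**
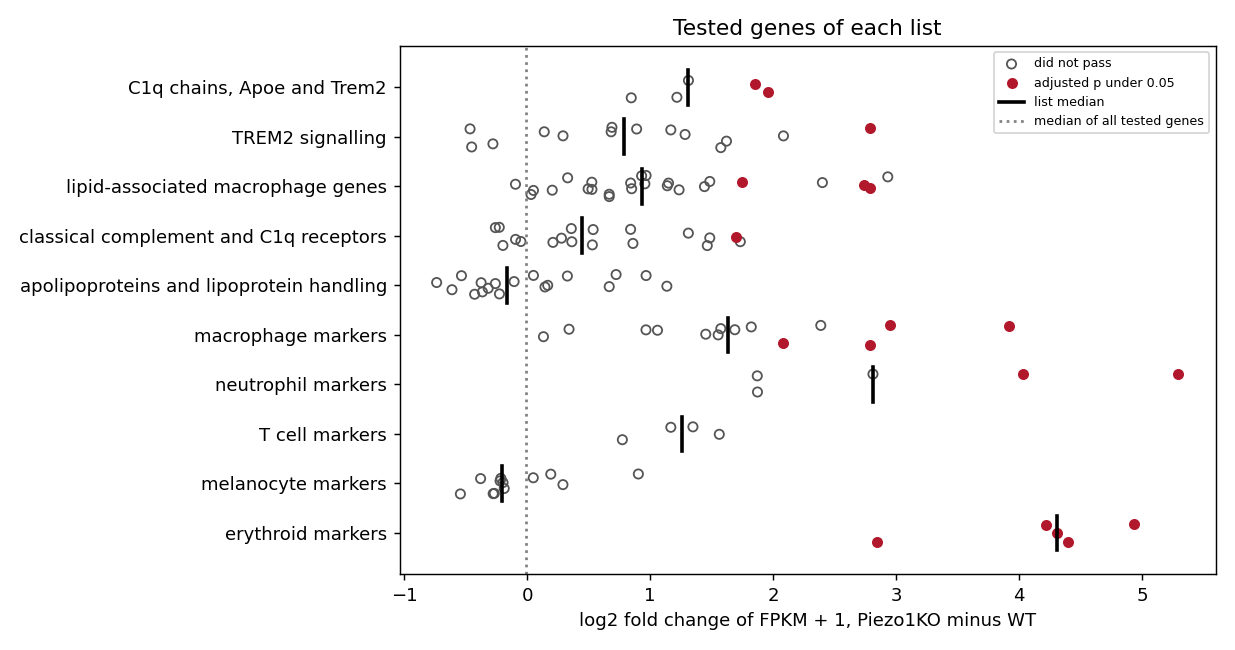
Log2 fold change of FPKM + 1, Piezo1KO minus WT (x axis), of each tested gene in 10 gene lists (rows, with the C1q chains, Apoe and Trem2 on top), filled where the limma adjusted p was under 0.05. Black bars are list medians and the dotted line is the median of all tested genes, -0.0059. The 5 genes run from 0.85 to 1.96 around a median of 1.31, the macrophage markers have a median of 1.63 and the melanocyte markers one of -0.20.

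Some markers of macrophages, neutrophils and red blood cells rose in the same libraries. Of 22 macrophage markers 14 were tested, 4 rose and 0 fell in limma and 7 were higher in voom, with a median of 1.63. Of the 14, 1 had a WT mean under 1 FPKM and reached the filter through the Piezo1KO libraries. The markers that rose were Tyrobp, Fcer1g, Cd14 and Ctss, with log2 fold changes of 2.79, 2.95, 3.92 and 2.08 (limma adjusted p of 0.0381, 0.0405, 0.0492 and 0.0492). The myeloid transcription factor gene Spi1 had 1.82 and the growth factor receptor gene Csf1r 1.55 (adjusted p of 0.0668 and 0.132). Adgre1, which encodes the macrophage antigen F4/80, had 4.08 and 1.40 FPKM in the Piezo1KO libraries and 2.37 and 1.26 FPKM in the WT libraries, so its groups overlapped (adjusted p = 0.594). Of this list Marco had 0 reads in the Piezo1KO libraries and Timd4 had 0 in the WT libraries.

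The summed macrophage markers reached 596 and 404 FPKM in Piezo1KO 1 and Piezo1KO 2, against 124 and 102 FPKM in WT 1 and WT 2. The summed C1q chains were 22.8% and 30.3% of that sum in the Piezo1KO libraries and 32.7% and 30.2% in the WT libraries, and these ranges overlapped. The ratio to Tyrobp alone did not overlap, with the summed C1q chains at 3.77 and 5.51 times Tyrobp in the Piezo1KO libraries and 11.4 and 10.4 times in the WT libraries. Trem2 was 0.499% and 0.715% of the summed macrophage markers in Piezo1KO against 0.412% and 0.645% in WT, and those ranges overlapped. The ratio of the Piezo1KO mean to the WT mean was 4.42 for the macrophage markers, 3.62 for the summed C1q chains, 5.02 for Trem2 and 1.81 for Apoe.

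Neutrophil markers differed between the Piezo1KO libraries in a way that the 5 genes did not. The 15 markers summed to 155 and 50.4 FPKM in Piezo1KO 1 and Piezo1KO 2, against 1.05 and 1.52 FPKM in WT 1 and WT 2, with Ly6g and Mpo at 0 reads in every library. Of 5 tested, S100a8 and S100a9 rose (limma adjusted p of 0.0433 and 0.0479), and all 5 had a WT mean under 1 FPKM and reached the filter through the Piezo1KO libraries. The summed C1q chains were 136 and 122 FPKM in the same Piezo1KO libraries, against 40.7 and 30.7 FPKM in the WT libraries. The 8 erythroid markers summed to 5124 and 8473 FPKM in Piezo1KO, against 389 and 244 FPKM in WT, and all 5 tested rose. Of 18 T cell markers 4 were tested, and 0 passed in limma or voom. All 4 had an unadjusted p under 0.05 in limma, against 3170 of all 11085 tested genes. Of the 4, 3 reached the filter through the Piezo1KO libraries, so this count leans upwards. The part of these cells, and of the mitochondrial share, in the values of the 5 genes was not tested.

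Of 9935 tested protein-coding genes, those most like the mean of the C1q chains were Psmb8, H2-K1, Ncf1, Selplg and Ctsk. Likeness was the Euclidean distance between log2(FPKM + 1) profiles over the 4 libraries, each centred on its own mean, and these lay at 0.167 to 0.244 log2 units. Psmb8 is an immunoproteasome subunit, H2-K1 an MHC class I heavy chain, Ncf1 a subunit of the phagocyte oxidase, Selplg a ligand of selectins and Ctsk a cathepsin. On this scale Trem2 was 0.523 and Apoe 0.908 from the C1q mean. The genes nearest to Trem2 were Ier2, Pcbd2, Sh3bgrl3, Rab20 and Btg1, at 0.0879 to 0.135, and those nearest to Apoe were Cebpd, Hsbp1, Bpgm, Gsdmd and Fam50a, at 0.0269 to 0.0850. The 5 genes were left out of the genes ranked, so none of them could be listed as nearest. The 1 added before the logarithm bears on these distances, since the ratio of means was 5.02 for Trem2 and 2.45 for Ier2. Psmb8, Ncf1 and Selplg had WT means of 0.485, 0.300 and 0.457 FPKM and reached the filter through the Piezo1KO libraries. With 4 libraries such distances are a description only.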

How the data were processed

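The 5 genes and all gene lists were chosen with earlier results of these data known. The submitters' processing notes name fastp 0.19.7, featureCounts 1.5.0-p3 and the build mm10, also called GRCm38. Not given in the sources used here are the aligner, the annotation release and the FPKM formula. RNA came from a column kit and libraries from a SMARTER mRNA kit, per the labels' protocols, with no strand setting given. The deposited file holds 1 FPKM value per gene and library, made by the authors, with gene lengths.

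In every library, FPKM multiplied by gene length was a whole number of equal steps (100% of values above 0, tolerance 0.05 reads), which gave whole reads. A floor of 3 reads and exact 95% binomial intervals cover counting error only. Genes with a mean of at least 1 FPKM were tested as log2(FPKM + 1) in limma 3.58.1 (R 4.3.3, lmFit, eBayes with an intensity trend, no block). Tables and figures used Python 3.11.15, pandas 2.3.3, scipy 1.17.1 and matplotlib 3.10.9. The test was tried on simulated data first.

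Alternatives tried: no filter, a filter at a mean of 5 FPKM, a pseudocount of 0.1, no trend, 3 other scalings, a replicate block, leaving out each library, and, added after seeing the data, voom and removal of the gene length trend. Genes named were the 5, a set of related genes named whatever their values, up to 4 of smallest p per list, 2 protein-coding neighbours per side and the 5 nearest profiles. Syk, Plcg2, Adam10, Adam17, Ctsd, Ctsz, Cd63, Marco, Timd4, Ly6g, Mpo and Pmel were named after their values were seen. Some named genes are not reported here.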

Additional observations from a re-analysis of the deposited data

How the results depend on the processing

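The log2 fold changes of all 5 genes stayed above 0 under every alternative run except that of Apoe, at -0.21 after quantile normalisation. The cause was not tested. With FPKM scaled to all assigned reads Apoe was at 0.037 (standard error 0.38), and the groups overlapped for Apoe and for C1qc. C1qa and C1qb lost their calls without a filter (1.85 and 1.96, limma adjusted p = 0.171 each, over more genes tested) and with the gene length trend removed (1.18 and 1.30). C1qa also lost it with FPKM scaled to all assigned reads (1.07), and C1qb with scaling to reads outside mitochondrial genes (1.76) and after quantile normalisation (1.73). Trem2 gained a call without an intensity trend (1.31), after quantile normalisation (1.36) and in voom (2.12), and was not tested at a mean of at least 5 FPKM. Leaving out 1 library gave 1.63 to 2.07 for C1qa, 1.76 to 2.16 for C1qb, 1.03 to 1.41 for C1qc, 0.75 to 0.94 for Apoe and 1.25 to 1.38 for Trem2.

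Over all genes tested, 122 passed, against 1 without a filter, 68 at a mean of at least 5 FPKM, 1718 scaled to all assigned reads, 306 in voom, 6 with the length trend removed, and 0 to 5859 leaving out 1 library. The log2 ratio of the share of reads held by the 5 genes was 0.15 over assigned reads, 0.74 over reads outside mitochondrial genes, 0.97 over the implied library size, and -0.19 to 0.50 leaving out 1 library. With the title numbers as a replicate block 264 genes passed, and C1qc, at 1.22, was among them (limma adjusted p = 0.0381). Same-numbered libraries did not deviate together (r = -0.033), so the numbers were not taken as pairs. With 2 libraries per group the r of both pairs must be equal, so this is a single check. The column names share only 1 number between the groups, so no block could be fitted with them. The count tests on recovered reads by edgeR and DESeq2 were not run, since the table holds FPKM. With 50 to 217 reads per library, depth limits the precision of Trem2 most.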
